A study of Mus musculus with 23 samples.

Results

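The mitochondrially encoded genes described here were mt-Nd1, mt-Nd2, mt-Nd4, mt-Nd5, mt-Co1, mt-Co2, mt-Co3, mt-Cytb and mt-Atp6. They were chosen by name, and these 9 genes stand among 13 mRNAs that mitochondrial DNA encodes and among 22350 genes counted in RNA-seq. Each of the 9 had an entry in all 23 libraries. The study asked how impaired translation, brought about by deleting Rptor (a subunit of the growth kinase complex mTORC1), changes intestinal stem cells of C57BL/6 mice. RNA-seq was made from organoids, which are epithelial cultures grown from intestinal crypts, and Ribo-seq from organoids and small intestine. All groups carried a tamoxifen-inducible Cre, driven by Villin in organoids (the intestinal epithelium) and by Lgr5 in mice (stem cells of the crypt).

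WT organoids had the genotype VillinCre.ERT2.RPL22.HA, and RNA-seq covered 2 organoid lines. Stem cell enriched (SCe) organoids had that same genotype but were cultured with CHIR and valproic acid, with 3 libraries each of RNA-seq and Ribo-seq. Organoids labelled Rptor fl/fl were VillinCre.ERT2.Rptor.fl/fl in RNA-seq (2 lines). Those in Ribo-seq (3 libraries) also held the RPL22.HA allele, so these assays did not use the same genotype. WT mice were Lgr5Cre.ERT2.RPL22.HA and mice labelled Rptor fl/fl were Lgr5Cre.ERT2.Rptor.fl/fl.RPL22.HA, with 3 mice each. The labels call WT and Rptor fl/fl samples untreated, whereas the study's methods describe tamoxifen induction. RPL22.HA is a tagged protein of the cytosolic ribosome, and footprints were read from ribosomes pulled down through that tag. Per the study's methods, cycloheximide, which halts translation, was used in preparing these samples. Only counts were used here, so the length and reading frame of reads on mitochondrial mRNAs were not examined. Whether these reads measure mitochondrial translation was not tested. Nothing in the labels says that libraries numbered within a group came from separate cultures, beyond the organoid or mouse number, so p-values measure the spread between these samples.

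Mitochondrial DNA keeps genes for a small core of the respiratory chain, while nuclear DNA encodes the remaining subunits. The mitochondrial genes are transcribed as long RNAs from both strands and cut into single mRNAs, most of which receive a poly(A) tail inside the organelle. They are translated by mitochondrial ribosomes, whose proteins differ from those of cytosolic ribosomes and do not include RPL22. Of the genes described here, mt-Nd1, mt-Nd2, mt-Nd4 and mt-Nd5 encode subunits of complex I, the NADH dehydrogenase. mt-Cytb encodes cytochrome b of complex III, mt-Co1, mt-Co2 and mt-Co3 the catalytic core of cytochrome c oxidase (complex IV), and mt-Atp6 a membrane subunit of ATP synthase.

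The first 30 bases of each coding sequence show how these mRNAs begin, since they lack the long leaders of nuclear mRNAs. They are given 5′ to 3′ from the GENCODE vM21 transcripts (mm10, plus strand), with the annotated first codon in capitals.
mt-Nd1: GTGttctttattaatatcctaacactcctc
mt-Nd2: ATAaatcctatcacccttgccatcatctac
mt-Co1: ATGttcattaatcgttgattattctcaacc
mt-Co2: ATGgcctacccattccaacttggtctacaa
mt-Atp6: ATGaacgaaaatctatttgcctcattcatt
mt-Co3: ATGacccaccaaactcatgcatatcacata
mt-Nd4: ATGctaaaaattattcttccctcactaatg
mt-Nd5: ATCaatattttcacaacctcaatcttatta
mt-Cytb: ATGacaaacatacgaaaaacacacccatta

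Of these, 6 begin with ATG and 3 with another codon, namely GTG in mt-Nd1, ATA in mt-Nd2 and ATC in mt-Nd5. As background, the mitochondrial code of vertebrates accepts such start codons. The genes lie in the order chrM:2751-3707 (mt-Nd1), chrM:3914-4951 (mt-Nd2), chrM:5328-6872 (mt-Co1), chrM:7013-7696 (mt-Co2), chrM:7927-8607 (mt-Atp6), chrM:8607-9390 (mt-Co3), chrM:10167-11544 (mt-Nd4), chrM:11742-13565 (mt-Nd5) and chrM:14145-15288 (mt-Cytb). Each is annotated as a single exon without untranslated regions. For 3 of them the annotated sequence stops 1 base into the last codon, and that base is in capitals in the last 12 bases below. As background, the poly(A) tail completes such a stop codon.
mt-Co3: gatgaggatctT
mt-Nd4: gcctgacaataT
mt-Cytb: aattatatccaT

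Neighbours are packed so tightly that some share bases. mt-Atp6 overlaps mt-Atp8 by 43 bases, mt-Co3 by 1, and mt-Nd4 overlaps mt-Nd4l by 7. mt-Cytb lies 74 bases from mt-Nd6, the only mRNA here on the minus strand. In the files the mitochondrial sequences were longer than annotated, by 99 or 100 bases in RNA-seq, 45 or 46 in organoid Ribo-seq and 80 or 81 in mouse Ribo-seq. Counts that were not whole numbers, which show reads divided between entries, occurred for mt-Nd4l in 11 of 23 libraries, where in all 11 the sum with mt-Nd4 was whole. For mt-Nd6 they occurred in 6 libraries, of which 4 gave a whole sum with mt-Cytb, and for mt-Nd5 in 2, both of which gave a whole sum with mt-Nd6. For mt-Atp8 they occurred in 13 libraries, of which 2 gave a whole sum with mt-Atp6, and for mt-Atp6 in 12, of which 0 gave a whole sum with mt-Co3. Values of mt-Nd4, mt-Nd5 and mt-Cytb can therefore depend on how reads were divided, while for mt-Atp6 and mt-Co3 these sums do not show between which entries reads were divided. Of the other protein-coding transcripts, 0 shared a run of 31 bases with an annotated mitochondrial mRNA on either strand. Footprints can be shorter than 31 bases, and the added bases were not compared. The count therefore does not show that short footprints had a single place.

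Depth was 27439459 to 67598878 reads per line or library in RNA-seq, 1106178 to 8257457 footprints in organoids and 772077 to 8238388 in mice. Rptor, the targeted gene, stood at 51.5 and 47.9 CPM (counts relative to library size, scaled by TMM) in RNA of WT lines and 14.8 and 15.5 in Rptor fl/fl lines (log2 change −1.71, SE 0.08, edgeR adjusted p = 0.00516). Footprints on Rptor were not significantly lower in organoid libraries labelled Rptor fl/fl than in SCe libraries (−0.53, adjusted p = 0.318) nor in mice labelled so than in WT mice (−0.28, adjusted p = 0.15). These Ribo-seq samples are therefore named by their label. Stem cell markers in SCe RNA-seq gave no single direction. Of 7 genes 4 had log2 changes above 0 against WT and 3 below, with a median of 0.11, and 0 were called higher and 2 lower, Olfm4 (−5.55, adjusted p = 0.00351) and Ascl2 (−1.81, adjusted p = 0.0093). Their summed level was 2390 to 3110 CPM in SCe and 4850 to 6600 in WT lines, and Lgr5 stood at 219 to 337 CPM in SCe and 197 to 215 in WT lines. Immune markers, which an epithelial culture should lack, summed to at most 1.21 CPM in organoid RNA-seq and 6.76 in organoid Ribo-seq. Smooth muscle markers summed to 23.0 to 68.5 CPM in organoid RNA-seq and 29.8 to 78.7 in organoid Ribo-seq. Pancreatic acinar markers summed to 20.4 to 67.0 and 41.8 to 139 CPM. Lgr5, the gene that drives Cre in mice, had only 9 to 48 footprints per WT mouse and 28 to 139 per mouse labelled Rptor fl/fl.

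Mitochondrially encoded mRNAs made up a large part of organoid RNA-seq and almost none of the footprints. The 9 genes took 8.06% and 8.42% of gene reads in the WT lines, 7.09% and 8.50% in the Rptor fl/fl lines, and 10.4%, 18.4% and 17.1% in SCe organoids. In Ribo-seq they took 0.102%, 0.0655% and 0.0701% of footprints in libraries labelled Rptor fl/fl and 0.101%, 0.0919% and 0.0243% in SCe libraries. Each RNA-seq value lay far above each footprint value. Counting error was small beside this, since the 95% Wilson interval of the lowest organoid footprint share was 0.0229% to 0.0258%, from 1031 footprints. Such intervals cover counting error alone.

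In mouse intestine the shares were 0.0269%, 0.0287% and 0.0204% in WT mice and 0.0229%, 0.0158% and 0.0136% in mice labelled Rptor fl/fl. The organoid footprint share of 0.0243%, in SCe replicate 3, lay within this range, and the other organoid footprint shares lay above it. The smallest of the mouse libraries held 208 footprints of the 9 genes (Wilson interval 0.0235% to 0.0309%). Organoids and mice were counted on different sequence sets, so no test was made between them. The 4 remaining mitochondrial mRNAs added little, since all 13 together took 10.9% to 19.3% of reads in SCe RNA-seq and 0.0255% to 0.107% of SCe footprints.

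**Figure D1:**
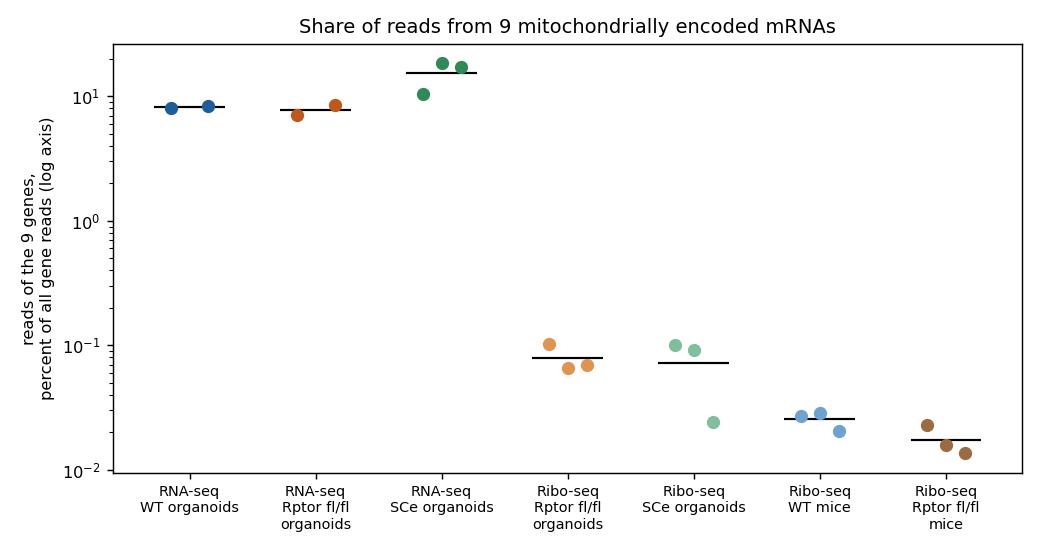
Percent of gene reads from the 9 mitochondrially encoded mRNAs (log axis) in each organoid line, library or mouse, with bars at the group means. RNA-seq values sit between 7.09% and 18.4%, and footprint values between 0.0136% and 0.102%.

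Relative to RNA, all 9 genes were lower in footprints of SCe organoids (edgeR's quasi-likelihood test, adjusted p from 0.000172 to 0.000591), where 27.3% of 8720 genes were called lower and 21.2% higher. All 9 were also lower in libraries labelled Rptor fl/fl (adjusted p from 7.09e-09 to 1.17e-07), where 47.5% of 10174 genes were called lower and 28.9% higher. The median log2 ratio of footprints to RNA over the 9 genes was −7.63 in SCe and −6.85 in Rptor fl/fl organoids, beside −0.05 and −0.27 over all genes tested. No nuclear gene tested reached as low as any of the 9 in either comparison. The lowest nuclear values were −5.46 in SCe and −5.63 in Rptor fl/fl organoids.

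**Figure D2:**
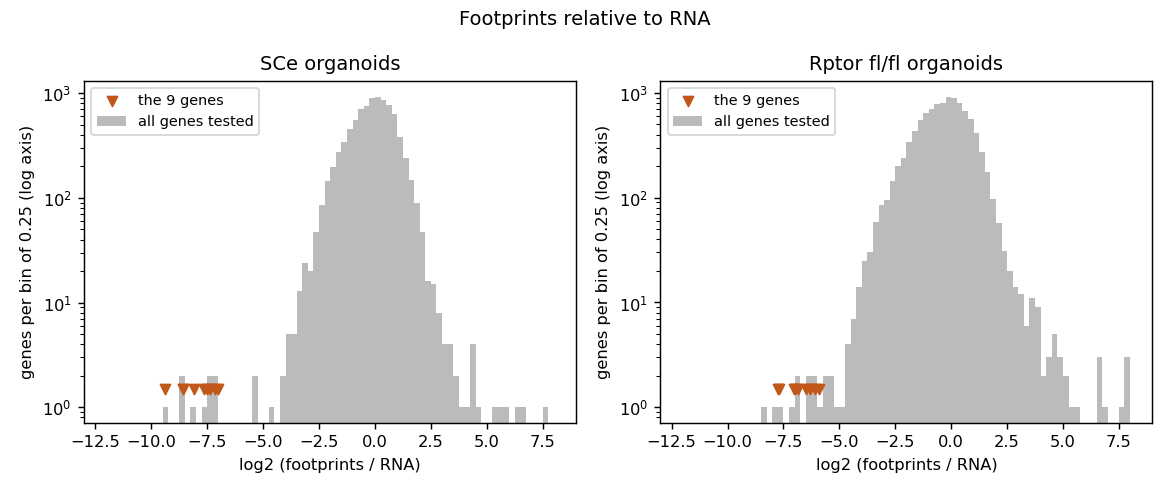
Number of genes (log axis) by log2 ratio of footprints to RNA in bins of 0.25, for SCe and Rptor fl/fl organoids, with triangles at the 9 mitochondrially encoded genes. The triangles lie between −9.41 and −7.03 in SCe and between −7.77 and −5.92 in Rptor fl/fl organoids, to the left of the bulk of genes.

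The ratios spread over a range among the 9 genes. mt-Nd1 was lowest in SCe organoids, with 82, 27 and 36 footprints beside 318952, 1350054 and 1110457 RNA-seq reads, a log2 ratio of −9.41 (SE 0.81), or 679-fold lower. It was also lowest in Rptor fl/fl organoids, at −7.77 (SE 0.19), or 218-fold lower. mt-Nd5 was the least depleted of the 9, at −7.03 (SE 0.68) in SCe and −5.92 (SE 0.14) in Rptor fl/fl organoids, which is 130-fold and 60.7-fold lower. The 3 complex IV genes lay between, at −7.17 to −7.49 in SCe and −6.08 to −7.02 in Rptor fl/fl organoids. mt-Atp6, the shortest of the 9, stood at −8.09 and −7.71. With SEs of 0.63 to 0.85 in SCe organoids, neighbours in this order lay no further apart there than the larger of their SEs.

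mt-Nd6, which is outside the 9 and lies on the other strand, had ratios nearer to 0, at −3.94 (SE 0.59, adjusted p = 0.00146) in SCe and −2.82 (SE 0.24, adjusted p = 4.73e-06) in Rptor fl/fl organoids. This was 15.4-fold and 7.07-fold lower. Its RNA was low, at 414 CPM per kb in SCe and 380 in Rptor fl/fl organoids, beside 4031 and 1847 for mt-Nd5, the lowest of the 9. Its footprints, at 32.9 and 59.5 CPM per kb, lay within the range of the 9. RNA came from a poly(A) kit, and the part of this in the ratio was not tested. Footprints of mt-Nd6 numbered 24 to 43 per SCe library. mt-Atp8, mt-Nd3 and mt-Nd4l did not pass the filter on low counts in the SCe comparison. In Rptor fl/fl organoids they stood at −8.27, −5.71 and −6.19.

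Nuclear genes for the same complexes moved the other way. Of 36 nuclear complex I genes, 35 were higher in footprints than in RNA in SCe and 36 in Rptor fl/fl organoids, with medians of 1.71 and 1.38. For nuclear complex IV genes, 10 and 11 of 11 were higher (medians 1.60 and 1.34), among them Cox5b at 2.16 (SE 0.30, adjusted p = 0.00117) and 1.76 (SE 0.11, adjusted p = 7.1e-07). All 15 nuclear ATP synthase genes tested were higher in both (medians 1.69 and 1.42). Complex III followed with 8 and 9 of 9 (medians 1.23 and 1.09), and complex II, which has no mitochondrially encoded subunit, with 3 of 4 in each (medians 0.88 and 0.62). Among 78 genes of the mitochondrial ribosome 50 and 67 were higher, and 0 and 4 were lower.

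RNA-seq was counted over whole transcripts and footprints over coding sequences, which matters for nuclear genes with long untranslated regions. With an offset for the length of the counted sequence, chosen after the data had been seen, the median over all genes became 0.94 in SCe and 0.72 in Rptor fl/fl organoids, and the calls became 5260 higher and 568 lower in place of 1848 and 2383 in SCe, and 6078 and 1677 in place of 2941 and 4832 in Rptor fl/fl. The 9 genes, whose sequences had nearly equal lengths in both assays, moved little, to medians of −7.56 and −6.78, and all 9 were lower. The nuclear lists of complexes I to IV and ATP synthase then had medians of 1.60 to 2.88 in SCe and 1.45 to 2.74 in Rptor fl/fl organoids. Assay, library kit and, for Rptor fl/fl, genotype differ together in these comparisons and cannot be told apart.

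Per length, mt-Co1 led on average in RNA, and the complex IV mRNAs together held a larger part of footprints than of RNA. In WT RNA-seq, mt-Co1 was highest at 18020 ± 615 CPM per kb of counted sequence (SD, n = 2). mt-Atp6 at 12010 ± 608 and mt-Co2 at 11590 ± 113 followed and overlapped. mt-Co3 stood at 10090 ± 236, mt-Nd1 at 7052 ± 194, mt-Cytb at 5652 ± 732, mt-Nd4 at 3680 ± 453, mt-Nd2 at 2930 ± 221 and mt-Nd5 at 1842 ± 166. These last 6 were set apart from their neighbours in both lines.

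Rptor fl/fl lines kept mt-Co1 at the top (16310 ± 2517) and mt-Nd5 at the bottom (1847 ± 245) on this scale, while several neighbours between overlapped. SCe organoids had the same top and bottom genes, at 30000 ± 10890 and 4031 ± 1491 CPM per kb (SD, n = 3). There each pair of neighbours in the order overlapped across libraries, and SCe replicate 1 lay below replicates 2 and 3 for every one of the 9. As a percent of the 9 genes' reads per kb within each SCe library, the top and bottom were apart from the rest. mt-Co1 held 21.4% to 23.3% and mt-Nd5 2.80% to 3.11%, while the others lay between 5.71% (mt-Nd2) and 15.45% (mt-Atp6).

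Of the reads of the 9 genes taken per length, complex IV genes held 53.0% to 56.0% in WT RNA-seq, 53.8% to 54.5% in Rptor fl/fl and 48.1% to 49.9% in SCe. In footprints they held 59.0% to 69.6% in SCe libraries and 61.1% to 69.4% in libraries labelled Rptor fl/fl. In mice they held 68.1% to 72.3% and 68.9% to 80.4%. Footprint values for complex IV did not overlap with any RNA-seq value. mt-Atp6 went the other way, from 14.0% to 16.9% in RNA-seq to 5.20% to 9.92% in footprints, apart from 2 SCe libraries at 14.0%. mt-Nd1 held 8.60% to 12.2% in RNA-seq and 2.91% to 6.23% in footprints.

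mt-Co1 and mt-Co2 led the footprints on average in each group. mt-Co1 held 25.4% to 33.0% per length in the 12 Ribo-seq libraries and mt-Co2 14.9% to 39.1%. In mice the levels of these genes were close, at 61.8 and 60.0 CPM per kb on average in WT, and their ranges overlapped. mt-Co3 at 28.6 lay below both. At the other end, mt-Nd4 footprints numbered only 6 to 30 per WT mouse and 16 to 28 per mouse labelled Rptor fl/fl, and its range overlapped that of its neighbour in either group. Values at this depth carry a large counting error.

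**Figure D3:**
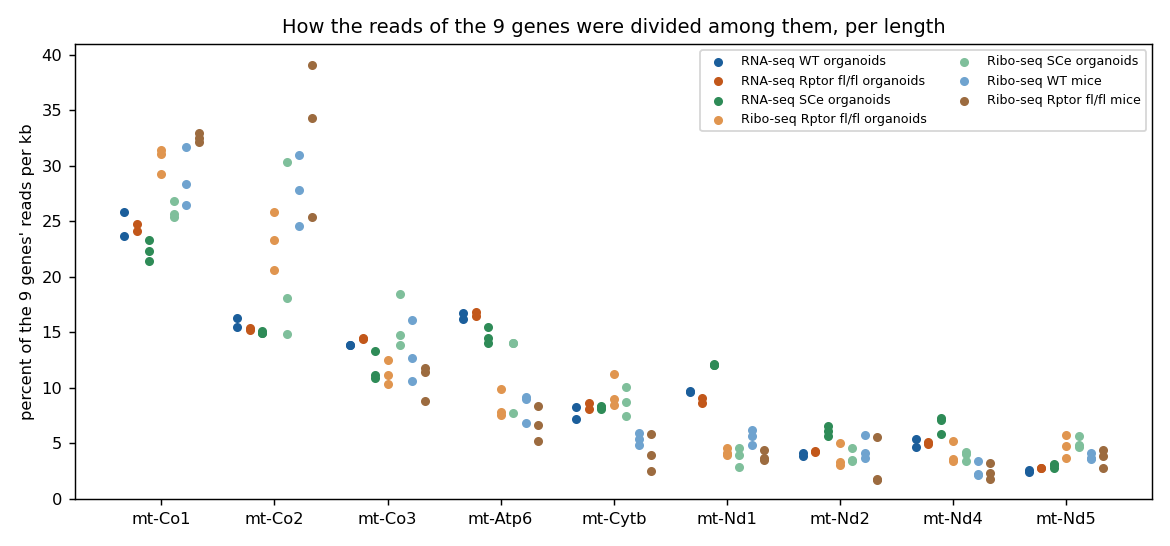
Each gene's percent of the reads per kb of the 9 genes, with a point for each organoid line, library or mouse. mt-Co1 and mt-Co2 reach 33.0% and 39.1% in footprints, while mt-Atp6 and mt-Nd1 lie lower in most footprint libraries than in RNA-seq.

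Between SCe and WT organoids, RNA-seq gave log2 changes above 0 for each of the 9 mitochondrially encoded mRNAs, and 2 of them passed the test. mt-Nd1 stood at 6915 and 7189 CPM per kb in the WT lines and at 10090, 20050 and 18060 in SCe libraries (log2 change 1.21, SE 0.33, adjusted p = 0.0364). mt-Nd2 stood at 2773 and 3086 in WT and at 4743, 10110 and 9881 in SCe (1.52, SE 0.38, adjusted p = 0.0286). The groups did not overlap for these 2 genes, nor for any other of the 9 except mt-Co1. The share of all genes without overlap was not counted. Of 14925 genes 22.4% were called higher and 19.9% lower, and 2 genes of 9 is close to that share of higher calls. The other 7 had log2 changes of 0.62 (mt-Co3) to 1.35 (mt-Nd4) and adjusted p from 0.0554 to 0.149. mt-Co1, at 18460 and 17590 in WT and 17800, 38750 and 33450 in SCe, overlapped between groups. The median of the 9 was 0.98, beside 0.02 over all genes.

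Of the other mitochondrial mRNAs, mt-Nd3 and mt-Nd4l were higher as well (0.98 and 1.51, adjusted p = 0.0262 and 0.0399). mt-Nd6 changed by 0.10 (95% interval −0.20 to 0.39).

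The nuclear genes of the respiratory chain gave no higher calls in this comparison. Among nuclear complex I genes 0 of 36 were higher and 8 lower (median −0.19), with Ndufs7 at −0.81 and Ndufb2 at −0.71 (adjusted p = 0.00205 and 0.0038). Of nuclear complex IV genes 4 of 11 were lower (median −0.37), of complex III genes 5 of 9 (−0.27) and of ATP synthase genes 7 of 15 (−0.33), with none higher in these lists. Polg2, an accessory subunit of the mitochondrial DNA polymerase, was lower (−1.01, adjusted p = 0.00466), and Mtif3, an initiation factor of mitochondrial translation, was lower too (−0.89, adjusted p = 0.00287). Elac2, which cuts tRNAs out of mitochondrial transcripts, was higher (0.61, adjusted p = 0.00395). Other genes of these lists went the other way. Gfm1, listed with Mtif3, was higher (0.32, adjusted p = 0.0143), and Trmt10c, listed with Elac2, was lower (−0.58, adjusted p = 0.00765). Of 11 genes for mitochondrial transcription and replication 1 was higher and 4 lower. The counts were 2 and 3 of 14 for RNA processing and 1 and 2 of 10 for translation factors. Of 78 mitochondrial ribosome genes 3 were higher and 17 lower.

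These calls depended on single libraries and on the tool. Without SCe replicate 1 all 9 were higher, beside 31.9% of all genes tested. Without SCe replicate 2 or 3, 0 were, beside 16.3% and 15.4% of all genes. DESeq2 called 8 higher, beside 26.1% of all genes. SCe replicate 1, with the lowest share of the 3 (10.4%) and the lowest depth, also had the lowest summed enterocyte markers (225 CPM over 8 of 8 genes, against 3490 and 4440) and Paneth cell markers (922 against 3460 and 4080, 6 of 6 genes), and the highest stem cell markers (3110 against 2450 and 2390, 7 of 7 genes). Goblet cell markers summed to 244 to 428 CPM in SCe and 1570 to 1670 in WT (6 of 6 genes). The part of these markers in the result was not tested. In bulk samples such as these, fewer cells of a type and less RNA per cell cannot be told apart.

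In RNA-seq of Rptor fl/fl against WT organoids no mitochondrially encoded mRNA was called different. The median log2 change of the 9 was −0.11, with values of −0.26 (mt-Nd1, 95% interval −0.67 to 0.16) to 0.00 (mt-Nd5, −0.37 to 0.38). mt-Co1 stood at 14530 and 18090 CPM per kb in Rptor fl/fl lines and 18460 and 17590 in WT lines, so the groups overlapped. With edgeR 0 of 9 were called in either direction, 0 had an unadjusted p under 0.05, and DESeq2 called 0. Over all 14131 genes 11.6% were called higher and 11.0% lower.

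Nuclear partners were lower in part. Of nuclear complex I genes 13 of 36 were lower and 0 higher (median −0.20), with Ndufs8 at −0.76 and Ndufv2 at −0.38 (adjusted p = 0.0183 and 0.02). Complex III had 3 of 9 lower, with Uqcrb at −0.47 and Uqcrq at −0.63 (adjusted p = 0.0166 and 0.0167), and ATP synthase 4 of 16, with Atp5k at −0.52 (adjusted p = 0.0127). Complex IV had 1 of 11 lower, Cox7a2 at −0.37 (adjusted p = 0.0252). Of 78 mitochondrial ribosome genes 27 were lower and 0 higher (median −0.29). Polrmt, the RNA polymerase of mitochondria, was higher (0.33, adjusted p = 0.034), while Ssbp1 of the same list was lower (−0.29, adjusted p = 0.0472). That list of 11 had 1 gene called in each direction. Lrpprc, which binds and stabilises mitochondrial mRNAs, was higher (0.29, adjusted p = 0.0386), while its partner Slirp was lower (−0.53, adjusted p = 0.0214). Of the 14 genes tested in their list 2 were higher and 1 lower. Paneth cell markers summed to 883 to 1850 CPM in Rptor fl/fl and 4950 to 6170 in WT lines (6 of 6 genes). Stem cell markers summed to 1950 to 3300 and 4850 to 6600, and goblet cell markers to 2840 to 3900 and 1570 to 1670. Their part in these list values was not tested.

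Against SCe organoids the log2 changes of all 9 genes were below 0, and 3 passed the test. These groups differ in genotype and in culture medium, which cannot be told apart. The comparison shares its SCe libraries with that of SCe and WT, so the values are set side by side and are not separate evidence. mt-Nd1 was at 5193 and 6614 CPM per kb in Rptor fl/fl lines, below each of the 3 SCe libraries (−1.44, SE 0.34, adjusted p = 0.0237). mt-Nd2 (−1.54, SE 0.38, adjusted p = 0.0262) and mt-Nd4 (−1.46, SE 0.42, adjusted p = 0.0403) also passed. Of 15103 genes 21.8% were called lower and 21.0% higher, and 3 genes of 9 is not far from that share of lower calls. The other 6 had values of −0.66 (mt-Co3) to −1.12 (mt-Nd5) and adjusted p from 0.0599 to 0.11. The median was −0.99, beside −0.01 over all genes. Outside the 9, mt-Nd3 (−1.12, adjusted p = 0.0175) and mt-Nd4l (−1.63, adjusted p = 0.0295) were lower, and mt-Nd6 was at −0.12 (95% interval −0.71 to 0.47).

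Nuclear complex I genes were split here, with 5 higher and 1 lower of 36 (median −0.04), and Ndufs7 at 0.85 (adjusted p = 0.00229). ATP synthase genes had 3 higher and 0 lower of 16, complex III 2 and 1 of 9, and complex IV 0 of 11 in either direction. Polg and Polg2 were higher (0.54 and 1.11, adjusted p = 0.00454 and 0.00489), in a list of 11 with 4 higher and 1 lower. Without SCe replicate 1 all 9 mitochondrial genes were lower, as with DESeq2, beside 30.2% and 25.9% of all genes tested. Without SCe replicate 2 or 3, 0 of the 9 were, beside 15.6% and 14.5% of all genes.

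**Figure D4:**
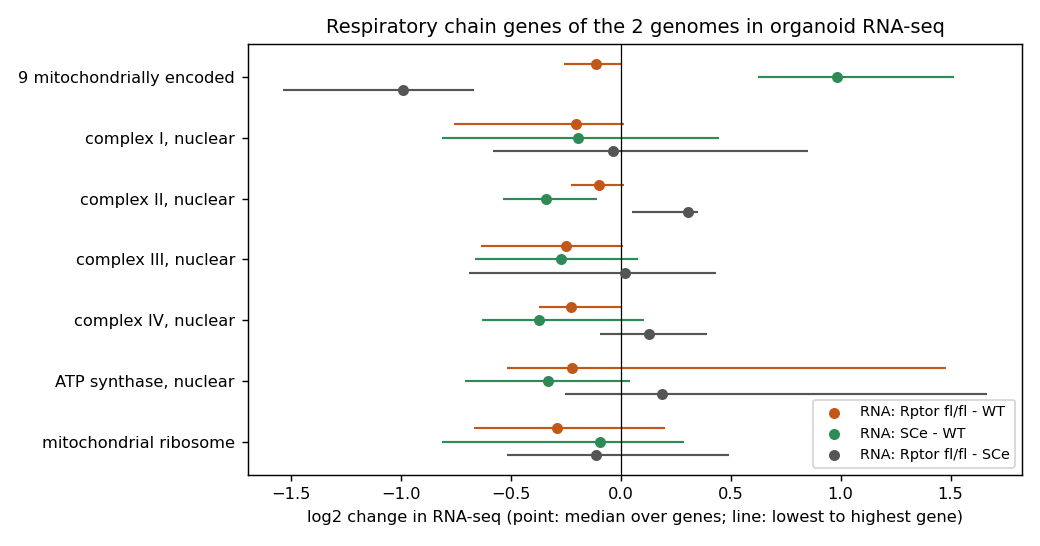
Log2 changes in RNA-seq for the 9 mitochondrially encoded genes, nuclear genes of each complex and the mitochondrial ribosome, with points at the median and lines from the lowest to the highest gene. The median of the 9 lies at 0.98 for SCe against WT, where the nuclear lists have medians between −0.37 and −0.09.

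Footprints on mitochondrially encoded mRNAs were not called different between libraries labelled Rptor fl/fl and SCe libraries. mt-Co1, with the most footprints, stood at 278, 180 and 175 CPM per kb in libraries labelled Rptor fl/fl and 258, 200 and 54.1 in SCe. mt-Cytb stood at 75.3, 51.8 and 67.5 against 96.6, 58.9 and 18.4. In both cases SCe replicate 3 was far below its group and the ranges overlapped. The log2 changes ran from −0.37 (mt-Atp6, 95% interval −1.43 to 0.69) to 0.31 (mt-Co1, −0.77 to 1.40), with a median of 0.20 beside −0.02 over all genes. With edgeR 0 of 9 passed in either direction, 0 had an unadjusted p under 0.05, and DESeq2 called 0. Of 10817 genes 6.63% were called higher and 9.84% lower. Leaving out SCe replicate 3 turned the summed share from 0.35 higher on the log2 scale to −0.31.

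The 95% interval of mt-Nd1 in footprints reached from −0.88 to 1.38. Of nuclear complex I genes 0 of 36 passed (median −0.16), as did 0 genes of complexes II, III and IV and of ATP synthase. Mrps31, a mitochondrial ribosome protein, was higher (0.58, adjusted p = 0.0372) as the only 1 of 78. Enterocyte markers summed to 5070 to 5300 CPM in libraries labelled Rptor fl/fl and 698 to 2510 in SCe (8 of 8 genes), and goblet cell markers to 2850 to 4500 and 1080 to 1480 (6 of 6). Paneth cell markers summed to 6210 to 9300 and 3400 to 5910 (5 of 6 genes had entries), and stem cell markers to 6220 to 6380 and 2680 to 4640 (7 of 7). Gene by gene, 5 of the 7 stem cell markers were lower in libraries labelled Rptor fl/fl, with a median log2 change of −0.58. By edgeR's test 3 were called lower, among them Smoc2 (−1.64, adjusted p = 0.00288), and 1 higher, Olfm4 (2.47, adjusted p = 0.00288). The part of these markers was not tested.

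Footprints per RNA, tested as the interaction of assay and group, were above 0 for each of the 9 in Rptor fl/fl against SCe organoids. Values ran from 0.46 (mt-Co3, SE 0.62) to 1.80 (mt-Nd2, SE 0.65) with a median of 1.23, beside −0.03 over all genes. By edgeR's test 0 of 9 passed (adjusted p from 0.156 to 0.748). At an unadjusted p under 0.05 there were 3, and DESeq2 called 0. Over all 10747 genes 1.12% were called higher and 1.81% lower. mt-Nd1 (1.74, SE 0.71) and mt-Nd4 (1.71, SE 0.70) came next to mt-Nd2. Without SCe Ribo-seq replicate 1 mt-Nd1 passed (2.57, adjusted p = 0.0336), beside 3.59% of all genes called higher. The same SCe RNA libraries enter this value and the RNA comparison above.

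**Figure D5:**
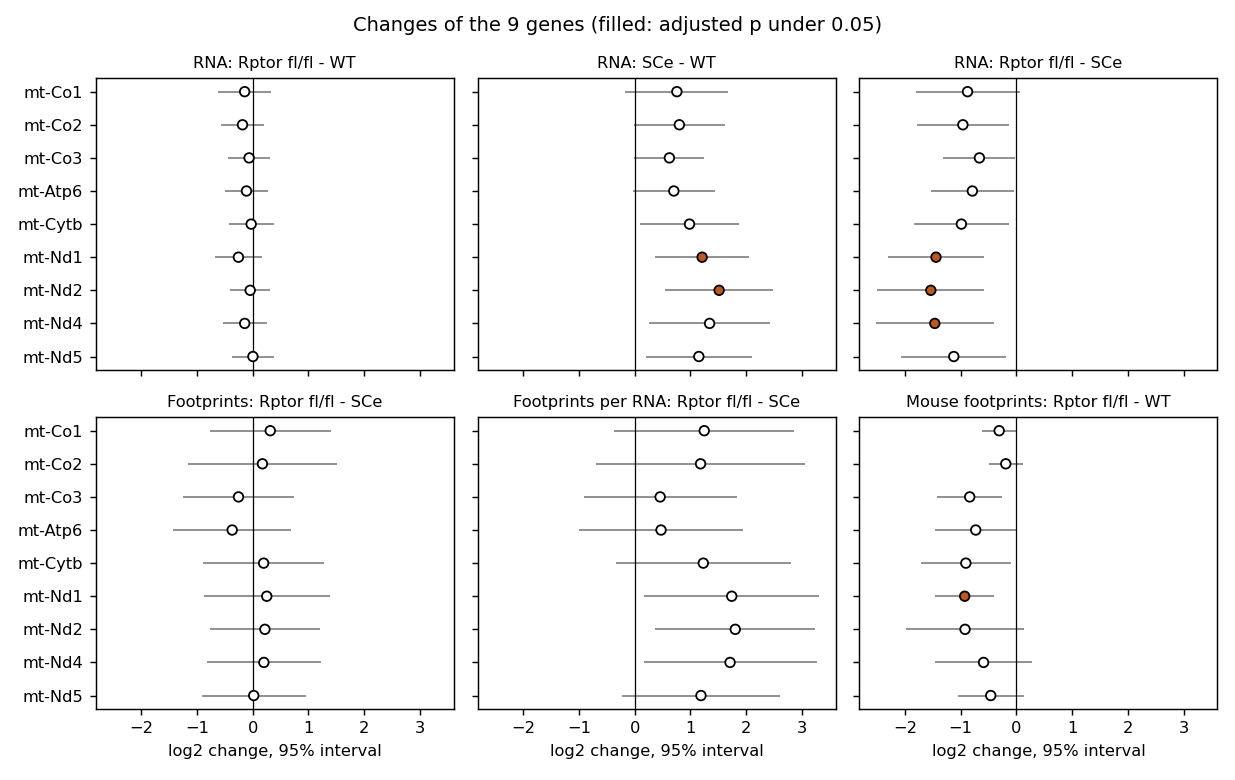
Log2 changes of the 9 genes with 95% intervals in 6 comparisons, filled where the adjusted p was under 0.05. Intervals are widest for footprints per RNA, and filled points are mt-Nd1 and mt-Nd2 for SCe against WT, mt-Nd1, mt-Nd2 and mt-Nd4 for Rptor fl/fl against SCe, and mt-Nd1 in mice.

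In pulled-down ribosomes of mice labelled Rptor fl/fl, each of the 9 genes had a log2 change below 0 against WT mice, and of the 9 mt-Nd1 alone passed the test. In the WT mice mt-Nd1 stood at 14.6, 11.8 and 9.63 CPM per kb, from 12, 27 and 55 footprints. In mice labelled Rptor fl/fl it stood at 7.27, 4.96 and 5.45, from 23, 17 and 45 footprints. The groups did not overlap (log2 change −0.93, SE 0.25, adjusted p = 0.0227). The call was lost with DESeq2 and with the effective length offset, where 0 of 9 passed, and mt-Nd1 was called in 6 of 12 alternatives. Of 11515 genes 5.97% were called lower and 7.47% higher, and 1 gene of 9 is close to that share of lower calls. The median of the 9 was −0.73, beside −0.02 over all genes.

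mt-Co3 was next, at 24.8, 39.5 and 21.7 CPM per kb in WT and 22.4, 16.8 and 10.9 in mice labelled Rptor fl/fl (−0.84, SE 0.27, adjusted p = 0.0545). mt-Cytb (−0.91, SE 0.38) and mt-Nd2 (−0.92, SE 0.49) had values of similar size and adjusted p of 0.135 and 0.251. mt-Co1 and mt-Co2, with the most footprints, differed least, at −0.31 (95% interval −0.63 to 0.01) and −0.19 (−0.50 to 0.11). The groups overlapped for each of the 9 except mt-Nd1. How many of all genes had no overlap between the mouse groups was not counted.

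Among the other mitochondrial mRNAs mt-Nd3 (−2.27, SE 0.49, adjusted p = 0.00609) and mt-Nd6 (−1.12, SE 0.33, adjusted p = 0.0371) were lower. mt-Nd3 had 7 to 39 footprints per WT mouse and 4 to 13 per mouse labelled Rptor fl/fl, so these values rest on few reads. In the lists of nuclear complex I to IV and ATP synthase genes 0 were lower. Cox5a and Cox7a2 of complex IV were higher (0.34 and 0.31, adjusted p = 0.00458 and 0.025) among 2 of 11, Uqcr10 of complex III was higher (0.39, adjusted p = 0.0125), and Ndufc1 of complex I was higher (0.46, adjusted p = 0.0177) as the only 1 of 36. In the lists for mitochondrial RNA processing and for translation factors 1 gene each was lower, Pnpt1 (−0.45, adjusted p = 0.0354) and Tsfm (−0.54, adjusted p = 0.0291).

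Replicate 1 of the mice labelled Rptor fl/fl lay near WT in these values. Its share of footprints on the 9 genes was 0.0229%, against 0.0158% and 0.0136% in replicates 2 and 3 and 0.0204% to 0.0287% in WT. Paneth cell markers followed the same order, at 8440 CPM in replicate 1, 5100 and 4920 in the others and 8690 to 9540 in WT (5 of the 6 genes had entries). Summed stem cell markers did too, at 713, 506 and 455 against 717 to 742 (7 of 7 genes). Lgr5, which is in that sum, did not, at 45.6 CPM in replicate 1, 8.49 and 6.29 in the others and 7.7 to 11.3 in WT. Rptor did not either, at 32.5 CPM in replicate 1, 34.25 and 36.7 in the others and 39.5 to 44.5 in WT. Without replicate 1, 7 of the 9 were lower, beside 7.25% of all genes tested. Without any other mouse in turn the count was 0, apart from 2 without WT replicate 3. Beside these, 3.23% to 4.73% of all genes were called lower.

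Markers of other cells were present in both groups. Enterocyte markers summed to 52900 to 54600 CPM in WT and 57100 to 62200 in mice labelled Rptor fl/fl (8 of 8 genes), and goblet cell markers to 21400 to 21700 and 25000 to 28000 (6 of 6). Pancreatic acinar markers summed to 2940 to 6800 CPM in WT and 5820 to 7110 in mice labelled Rptor fl/fl (11 of 11 genes), smooth muscle markers to 1740 to 1890 and 1580 to 1830 (8 of 8), immune markers to 3780 to 3880 and 3500 to 3880 (8 of 8), and none of these genes was at 0. Depth also differed, and the deepest mouse of each group (5337092 and 8238388 footprints) had the lowest share of its group. The part of markers and depth in the result was not tested.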

How the data were processed

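The members and the gene lists were chosen with earlier results of these data known. Per the study's methods and the submitters' processing notes, adapters were cut with cutadapt 1.18, rRNA reads were discarded, and Salmon 1.1.0 assigned the rest to GENCODE vM21 protein-coding transcripts (mm10). RNA came from a poly(A) kit that keeps strand, and footprints were size selected after RNase I digestion. The authors deposited Salmon's estimated counts, not scaled for depth, for each sequence. Lengths and effective lengths in the deposited files served as offsets or for levels per kb. TPM columns and the authors' own table of translation efficiency, which holds their fold changes and p-values, were not used.

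Estimated counts were summed per gene without the separate 5′ entries, libraries that were technical repeats of 1 line were added together, and totals were rounded. Tests used edgeR 4.0.16 in R 4.3.3 with TMM (within each assay where assays were combined), filterByExpr, the quasi-likelihood test and Benjamini-Hochberg adjustment over all genes tested at 0.05, in 8 comparisons, each fitted on its own groups. The edgeR fits were tested on simulated data. A share is the percent of gene counts, with Wilson intervals at 95%. CPM per kb is CPM divided by the length of the counted sequence, and no nuclear gene's level was compared with a mitochondrial one. Shares were compared as values only. Genes named are the 9 members, the other 4 mitochondrial mRNAs, Rptor, and up to 2 genes of smallest adjusted p from lists in which a gene passed; marker lists are given as sums. Lgr5 and the extremes were singled out after their values were seen.

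Alternatives were DESeq2 1.42.0, no count filter, offsets for length, library sizes without mitochondrial mRNAs, technical libraries kept apart, the replicate number as a block, and leaving out each line, library or mouse. Numbers pair samples where every pair's deviations from the group means correlate above 0.1. This held for RNA-seq and Ribo-seq of SCe organoids (0.29, 0.102 and 0.209), with the pairing taken from the organoid numbers in the labels, and for no other comparison with 3 pairs. The RNA-seq comparisons also lay above 0.1 (0.134 to 0.252), but with only 2 pairs each they were not taken as paired.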

Additional observations from a re-analysis of the deposited data

How the results depend on the processing

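All 9 genes were lower in footprints than in RNA in both organoid groups under each alternative that was run. The other counts moved. Shares of all genes called in the same direction are in brackets. Of the 9, the number lower in Rptor fl/fl against SCe RNA-seq was 3 (21.8%). It was 9 with DESeq2 (25.9%), 9 with technical libraries as separate replicates (31.4%) and 0 with the replicate number as a block (11.5%). On leaving out 1 SCe library it ran from 0 to 9 (14.5% to 30.2%). The number higher in SCe against WT RNA-seq was 2 (22.4%). It was 8 with DESeq2 (26.1%), 9 with technical libraries kept apart (31.7%) and 0 with the block (11.7%). On leaving out 1 SCe library it ran from 0 to 9 (15.4% to 31.9%). For footprints per RNA the number higher was 0 (1.12%), but 1 with technical libraries apart (mt-Nd2, 5.06%). On leaving out 1 SCe or Ribo-seq library it was 0 to 1 (0.255% to 3.59%). In mice the number lower was 1 (5.97%), but 0 with DESeq2 (3.6%) and 0 with the effective length offset (2.49%). It was 3 without a count filter (4.27%), 5 with the block (4.98%), and 0 to 7 on leaving out 1 (3.23% to 7.25%). The cause of these shifts was not tested. The replicate block changed no other call over the 9 genes. In the RNA-seq comparisons, with 2 pairs each, deviations of same-numbered samples correlated at 0.134 to 0.252, and outside SCe organoids the samples were taken to share only a number.

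Directions turned only where no gene was called. On leaving out 1 line, the log2 difference in summed share ran from −0.22 to 0.046 for Rptor fl/fl against WT RNA-seq and from −0.31 to 0.72 for organoid footprints. Over single genes the changes for Rptor fl/fl against WT RNA-seq then ran from −0.16 to 0.078 (mt-Nd2), −0.12 to 0.13 (mt-Nd5), −0.29 to 0.0055 (mt-Co1), −0.19 to 0.062 (mt-Co3), −0.16 to 0.11 (mt-Cytb) and −0.22 to 0.0060 (mt-Atp6). Those for organoid footprints ran from −0.26 to 1.13 (mt-Nd1), −0.23 to 0.74 (mt-Nd2), −0.27 to 0.63 (mt-Nd4), −0.41 to 0.55 (mt-Nd5), −0.11 to 0.80 (mt-Co1), −0.33 to 0.72 (mt-Co2), −0.66 to 0.25 (mt-Co3), −0.27 to 0.95 (mt-Cytb) and −0.80 to 0.47 (mt-Atp6). mt-Nd5 also turned in footprints to −0.025 with DESeq2 and −0.0098 with the effective length offset. Footprint values of the 9 genes rested on 1016 to 6121 reads per organoid library and 208 to 1121 per mouse.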
